A study of Mus musculus with 31 samples.

Results

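Chemokines and their receptors set the places where lymphocytes settle, and 8 genes of this system were followed here across lymphoid tissues of mice that lack GIT2. They comprise the ligands Cxcl13, Ccl19 and Cxcl12 and the receptors Cxcr5, Ccr7, Ccr6, Cxcr4 and Ccr9. All probes that the array annotation assigns to these 8 symbols were taken and kept apart, which gave 8 of 16593 gene symbols and 15 of the 25697 probes on the array. Cxcr5 has 3 probes, Cxcl12 has 5, Ccr6 has 2 and each of the other genes has 1. The 8 genes were chosen on earlier results of these same arrays, among them the disagreement of the Cxcr5 probes and the Cxcl13 signal of the extra nodes. Their levels, their differences and the number of their probes past the threshold of the fit over all probes are therefore given as a description with no p-value, and p-values are printed for other genes only.

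Homing chemokines are made mainly by stromal and endothelial cells, and their G-protein-coupled receptors sit on lymphocytes and dendritic cells. Cxcl13 draws Cxcr5-bearing B cells and follicular helper T cells into follicles, whereas Ccl19 and the related Ccl21 draw Ccr7-bearing T cells and dendritic cells into the T zone and guide mature thymocytes to the thymic medulla. Cxcl12 acts through Cxcr4 on nearly all leukocytes, Ccl20 acts through Ccr6, and Ccl25 of the thymus and gut acts through Ccr9. GIT2 is a GTPase-activating scaffold protein that binds signalling partners of such receptors.

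The tissues came from male C57BL/6 mice aged 12 months, either wild type (WT) or homozygous for a gene trap in Git2 (GIT2KO). The GIT2KO animals carry the disruption in every cell. Thymus, inguinal lymph nodes (ILN), mesenteric lymph nodes (MLN) and spleen were sampled in both genotypes. Another tissue, labelled extra lymph nodes and taken here as the parathymic lobes that the study describes, existed in GIT2KO mice only. Each of these 9 tissue-by-genotype groups held 3 samples, 27 in all, hybridised to 31 bead arrays since 4 samples were run again. The samples came from 3 WT and 4 GIT2KO animals. One animal gave several tissues, so tissues of a genotype are not independent of each other. Replicate 3 of the extra nodes came from another mouse than replicate 3 of the other GIT2KO tissues. All levels below are log2 signals after background correction and quantile normalization, and undetected probes lie near the bottom of this scale, as the Ccr9 probe shows (4.52 to 4.74).

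Across all arrays 45.9 to 52.8% of probes were detected and the mean raw signal ran from 209 to 591. The 3 Git2 probes were lower in GIT2KO than in WT in all 4 tissues, with log2 differences of -0.74 to -3.64 (limma, largest adjusted p = 0.034). B cell markers averaged 9.91 to 10.71 in each node and spleen sample and 6.43 to 8.03 in the thymi. Markers of double-positive thymocytes averaged 9.9 to 10.32 in thymi and 6.17 to 6.78 elsewhere, and those of thymic epithelium 9.67 to 10.05 against 4.94 to 5.68. In the extra nodes none of the 6 tested epithelial markers was detected in all 3 samples, and Krt5, Krt8, Krt18, Prss16 and Trp63 were detected in none. Of single samples, the spleen of WT replicate 3 was the dimmest (209 and 220 on its 2 arrays), the MLN of WT replicate 2 differed from its group in Ccr7, and the thymus of GIT2KO replicate 3 held more B cell signal than its group. Values without them are given where they moved a result.

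Of the 15 probes, 12 passed the filter on dim probes (detected in at least 3 samples), among 15053 tested. The Ccr9 probe and 2 of the Cxcl12 probes, named C and D here, were detected on none of the 31 arrays. Ccr9 is abundant on thymocytes, but its raw signal stayed between 51 and 65.3 everywhere, thymus included. This probe and these 2 Cxcl12 probes hence give no level, and nothing follows from them about the transcripts.

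The ligands differ in the sequence before their start sites, which is shown for the 3 ligand genes as the 250 bases before each RefSeq start (GRCm38.p6, 5′ to 3′ on the strand of the gene). Such an entry existed for 6 of the 8 genes. Capitals mark matches, on either strand, to TATAAA, known as a TATA box, to GGGCGG, known as a GC box, and to GGGAGATTT (a site known from the mouse Cxcl13 promoter that binds RelB and p52 of the alternative NF-κB pathway).
Cxcl13, chr5:95956689-95956938, plus strand: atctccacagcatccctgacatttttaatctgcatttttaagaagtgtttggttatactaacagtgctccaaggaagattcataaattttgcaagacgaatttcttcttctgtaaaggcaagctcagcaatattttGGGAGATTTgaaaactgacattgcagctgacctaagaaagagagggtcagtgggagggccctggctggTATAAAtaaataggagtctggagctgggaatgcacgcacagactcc
Ccl19, chr4:42756366-42756615, minus strand: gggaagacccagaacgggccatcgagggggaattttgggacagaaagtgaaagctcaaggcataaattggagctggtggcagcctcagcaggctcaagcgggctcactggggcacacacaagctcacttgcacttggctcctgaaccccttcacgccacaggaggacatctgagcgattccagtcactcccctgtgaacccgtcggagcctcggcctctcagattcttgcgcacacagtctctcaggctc
Cxcl12, chr6:117168285-117168534, plus strand: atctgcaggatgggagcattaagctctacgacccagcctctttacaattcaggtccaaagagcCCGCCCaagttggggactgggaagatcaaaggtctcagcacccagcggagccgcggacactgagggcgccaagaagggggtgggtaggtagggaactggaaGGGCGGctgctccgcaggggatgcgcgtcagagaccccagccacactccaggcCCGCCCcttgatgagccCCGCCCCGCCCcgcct
The Cxcl13 stretch held 1 TATAAA, 46 to 41 bases before the start, and 1 GGGAGATTT, 114 to 106 bases before it. The Cxcl12 stretch held 5 GGGCGG matches, the last 2 overlapping by 1 base, and the Ccl19 stretch held none of the 3 motifs. In all 32851 stretches of this length, TATAAA occurred in 12.4%, GGGCGG in 32.7% and GGGAGATTT in 0.283%. These matches describe the sequence and were not tested as binding sites.

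Cxcr5, the B cell receptor for Cxcl13, is the member whose probes disagreed. Its probes A (ILMN_1219316), B (ILMN_2990494) and C (ILMN_2990502) are annotated to the same RefSeq transcript. Probe A was detected in no GIT2KO sample, where all 15 values lay between 4.53 and 4.71, and in every WT sample of nodes and spleen. Its WT levels were 7.8, 7.58 and 8.17 in ILN, 8.21, 8.62 and 7.81 in MLN, and 8, 8.25 and 8.04 in spleen. The 2 genotypes thus shared no value in any of these 3 tissues. Raw signals ran from 136.8 to 670 in these 9 WT samples and from 52.6 to 63.9 in the 15 GIT2KO samples.

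Because the GIT2KO groups have only an upper bound, the genotype ratio of probe A is a bound too. It takes the WT mean against the lowest signal of any detected probe (detection p under 0.05) on the GIT2KO arrays. WT was at least 5.52-fold higher in ILN, at least 7.2-fold higher in MLN and at least 6.6-fold higher in spleen. In thymus the WT values were 5.38, 4.96 and 5.97, of which 2 were detected, and WT was at least 1.07-fold higher. The fitted log2 differences, which depend on how background is handled, were -3.24 ± 0.21 (SE) in ILN, -3.6 ± 0.21 in MLN, -3.44 ± 0.21 in spleen and -0.87 ± 0.21 in thymus.

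Probes B and C carried no such gap. Probe B read 10.22, 9.94 and 10.29 in WT ILN and 10.76, 10.45 and 10.82 in GIT2KO ILN. In MLN it read 10.59, 10.96 and 10.29 in WT and 10.32, 10.03 and 10.5 in GIT2KO, and in spleen 10.97, 10.91 and 10.65 against 10.66, 10.19 and 10.77. The GIT2KO ILN lay above WT by 0.52 ± 0.32 with no overlap, while the other 2 tissues overlapped at -0.33 ± 0.32 and -0.3 ± 0.32. Probe C gave 9.64, 9.76 and 9.89 in WT ILN against 10.12, 10.03 and 10.26 in GIT2KO ILN, and 9.87, 10.62 and 9.88 in WT MLN against 9.71, 9.48 and 9.81 in GIT2KO MLN. In spleen probe C read 9.82, 10.13 and 9.48 in WT and 10.11, 9.9 and 10.37 in GIT2KO. Probe C thus separated the genotypes in ILN (0.38 ± 0.37, GIT2KO higher) and in MLN (-0.46 ± 0.37, GIT2KO lower) and overlapped in spleen (0.32 ± 0.37). Probe B and C differences in nodes and spleen lay between -0.46 and 0.52, against -3.24 to -3.6 for probe A. Probes B and C correlated at r = 0.98 over the 27 samples (0.63 over the 21 outside the thymus), whereas probe A correlated with them at 0.33 and 0.28. These points share animals and arrays, and the correlations are descriptive.

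**Figure D1:**
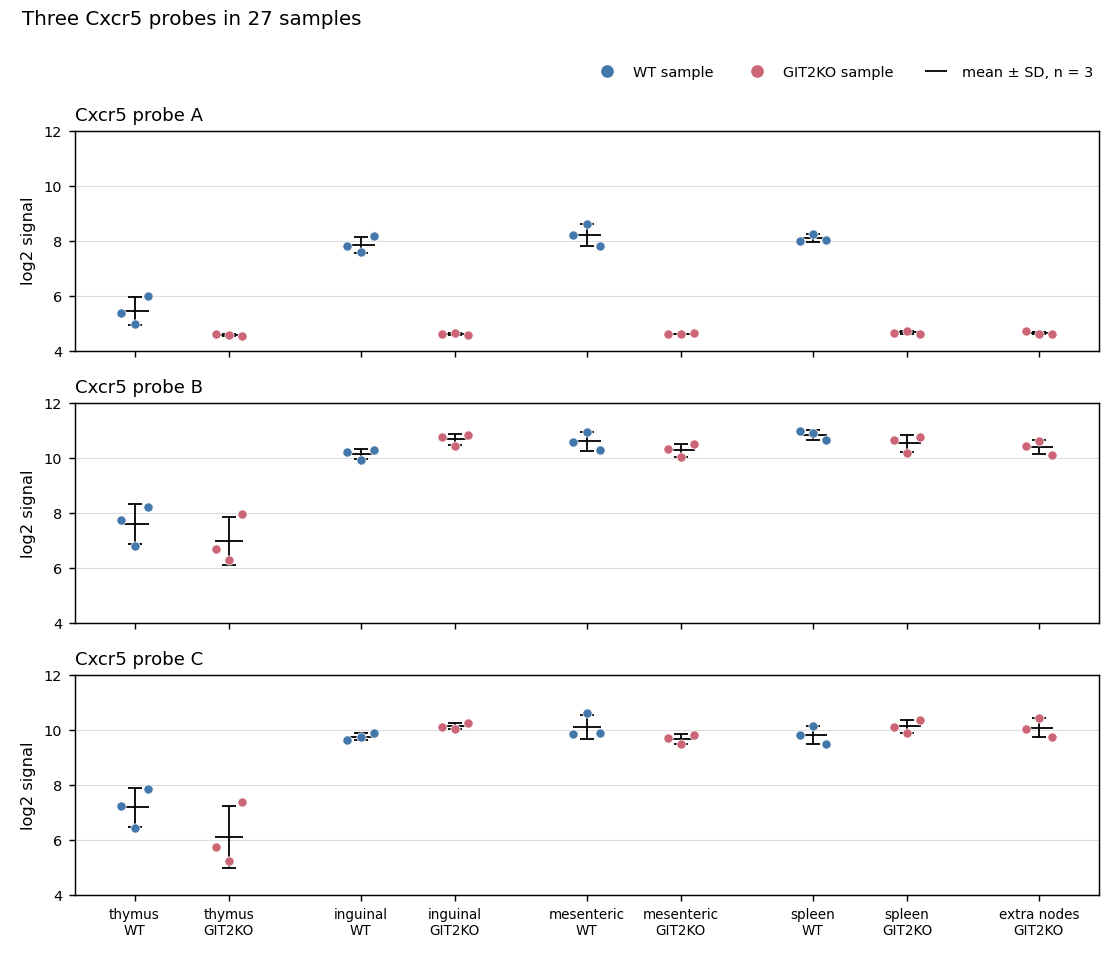
Log2 signal of the 3 Cxcr5 probes (y axis) in each of the 9 tissue-by-genotype groups (x axis); dots are samples, bars mean ± SD of 3 samples. Probe A lies at 4.53 to 4.71 in all 15 GIT2KO samples and at 7.58 to 8.62 in WT nodes and spleen, while probes B and C are near 10 in nodes and spleen of both genotypes.

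In the thymus all 3 Cxcr5 probes were low. Probe B read 7.74, 6.8 and 8.23 in WT thymi and 6.69, 6.28 and 7.96 in GIT2KO thymi. Probe C read 7.25, 6.45 and 7.86 against 5.73, 5.22 and 7.38. The genotypes overlapped, and GIT2KO replicate 3 stood above the other 2 GIT2KO thymi. The differences were -0.61 ± 0.32 for probe B and -1.07 ± 0.37 for probe C. Without that thymus they were -1.1 ± 0.28 and -1.71 ± 0.3. The B cell marker mean of this sample was also the highest of its group (7.7 against 7.12 and 6.43), and the 3 WT thymi had 7.58, 6.93 and 8.03, in the same order as their probe B levels. In bulk tissue, fewer cells of a type and less RNA per cell cannot be told apart. Over all samples probe B correlated with the B cell marker mean at r = 0.99, and at 0.78 without the thymi.

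In the extra nodes Cxcr5 probe B read 10.43, 10.63 and 10.11 and probe C 10.04, 10.44 and 9.76. Every one of these values lay above every GIT2KO thymus value, by 3.41 ± 0.32 and 3.97 ± 0.37 in the mean (3.9 ± 0.28 and 4.6 ± 0.3 without GIT2KO thymus replicate 3), and overlapped with both GIT2KO node groups. Probe A was undetected there as in all GIT2KO tissue (4.7, 4.6 and 4.62). The order of group means for probe B had only 1 step without overlap, between the lowest node group (WT ILN, 10.15) and the WT thymus (7.59). The 6 other node and spleen groups, 10.28 to 10.84, overlapped step by step.

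Cxcl13, the follicular ligand of Cxcr5, had its highest group mean in the extra nodes. It read 12.15, 12.92 and 12.75 there, and 12.46, 12.68 and 12.37 in GIT2KO ILN. These groups overlapped and stood above WT ILN (11.8, 11.4 and 11.31). GIT2KO ILN exceeded WT ILN by 1 ± 0.36 without overlap. In the same GIT2KO ILN lymphoid stroma markers averaged 9.24 to 9.26 against 8.77 to 8.94 in WT (3 of 12 rose), B cell markers 10.58 to 10.71 against 10.17 to 10.31 (0 of 7 called), and 3 of 9 mature T cell markers fell. Their part in the ILN values of Cxcl13, Cxcr5 and Ccr6 was not tested. In spleen Cxcl13 read 11.48, 11.6 and 11.42 in WT and 11.4, 11.43 and 11.55 in GIT2KO, a difference of -0.04 ± 0.36. In MLN, GIT2KO read 11.38, 11.2 and 11.24 and WT 11.47, 10.17 and 10.46, so that the genotypes overlapped at 0.58 ± 0.36. Without WT replicate 2 the MLN difference was 0.31 ± 0.38.

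The thymi had the least Cxcl13, with 8.62, 6.73 and 8.1 in WT and 6.56, 7.82 and 7.74 in GIT2KO. No thymus reached the lowest node or spleen value. The extra nodes exceeded the GIT2KO thymi by 5.24 ± 0.36, a 37.7-fold ratio, and the GIT2KO MLN by 1.33 ± 0.36 (2.52-fold), without overlap in either case. They differed from GIT2KO ILN by 0.1 ± 0.36, within the spread of the samples.

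Ccl19, one of the T zone ligands of Ccr7, followed another order, with GIT2KO MLN highest at 12.79, 13.25 and 12.93. WT MLN read 12.33, 11.58 and 11.96, all lower, and the difference was 1.04 ± 0.32 (0.85 ± 0.36 without WT replicate 2). In spleen GIT2KO read 11.12, 11.82 and 11.49 against 10.23, 10.64 and 9.48 in WT. This was a difference of 1.36 ± 0.32 without overlap, or 1.05 ± 0.34 without the dim WT spleen replicate 3. Beside it, lymphoid stroma markers averaged 8.54 to 8.62 in GIT2KO and 8.84 to 8.99 in WT spleen (1 of 12 rose and 4 fell), and 3 of 6 macrophage markers rose. Their part in the Ccl19 and Cxcl12 values was not tested. The ILN overlapped between genotypes, at 12.13, 12.44 and 12.24 in GIT2KO and 11.46, 12.27 and 11.75 in WT. The extra nodes (12.41, 12.9 and 11.83) exceeded the GIT2KO thymi (8.84, 8.33 and 9.33) by 3.55 ± 0.32 and overlapped with both GIT2KO node groups. WT thymi read 8.49, 7.76 and 9.04, which overlapped with GIT2KO thymi. The single Ccl19 probe was not checked against related sequences.

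Cxcl12, the ligand of Cxcr4, was read by 3 usable probes that also did not move as one. Probe A belongs to one annotated transcript, probes B and C to another, and probes D and E to one more. Probes B and E correlated at r = 0.94 over 27 samples, while probe A correlated with them at 0.22 and 0.08. In spleen probe B read 9.78, 10.69 and 10.8 in GIT2KO against 8.31, 9.43 and 7.91 in WT, and probe E 8.73, 9.88 and 9.88 against 7.59, 8.3 and 5.96. Neither probe overlapped between genotypes. Both were higher in GIT2KO. The differences were 1.87 ± 0.35 for probe B and 2.21 ± 0.46 for probe E. The dim WT spleen replicate 3 was lowest for both probes, and without it they were 1.55 ± 0.37 and 1.55 ± 0.42.

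Probe A of Cxcl12 gave a smaller spleen difference, with overlap. It read 12.43, 12.74 and 12.83 in GIT2KO spleen and 11.41, 12.58 and 11.91 in WT spleen, or 0.7 ± 0.23. In thymus the probes parted. Probe A read 11.37, 11.32 and 11.25 in GIT2KO and 11.46, 11.54 and 10.96 in WT, a difference of -0.01 ± 0.23. Probe B read 10.06, 9.94 and 9.92 against 8.93, 9.04 and 8.81 (1.05 ± 0.35), and probe E 9.5, 9.69 and 9.1 against 8.47, 8.33 and 7.99 (1.17 ± 0.46), both without overlap. Adipocyte and erythroid markers also differed between these thymi. Of 9 adipocyte markers tested 7 rose in the GIT2KO thymus, where their mean ran from 8.79 to 10.52 against 5.02 to 7.88 in WT. Of 3 erythroid markers 2 rose, with a mean of 7.53 to 10.19 against 6.61 to 8.27. Over all 27 samples the adipocyte mean correlated with probes B and E at r = 0.39 and 0.48. The part of these markers in the Cxcl12 values was not tested.

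In the nodes Cxcl12 showed little. Probe A was lower in GIT2KO ILN (11.41, 11.5 and 11.96) than in WT ILN (12.34, 12.04 and 12.2), by -0.57 ± 0.23 without overlap. Probe B overlapped there, and its mean rested on GIT2KO replicate 3 (9.31, 9.39 and 10.71 against 9.25, 9.57 and 9.49). The probe B difference was 0.37 ± 0.35, and -0.08 ± 0.34 without that sample. All 3 probes overlapped between genotypes in MLN. The extra nodes read 11.87, 11.51 and 11.72 for probe A, all above the GIT2KO thymi (0.39 ± 0.23). Probe B read 10.37, 10.16 and 9.99 there, with a mean (10.17) under that of GIT2KO spleen (10.42) and at most 0.36 above any other GIT2KO tissue mean on the log2 scale. Probe E read 9.96, 9.86 and 9.27 and had its highest group mean there (9.7), but overlapped with every other GIT2KO tissue.

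**Figure D2:**
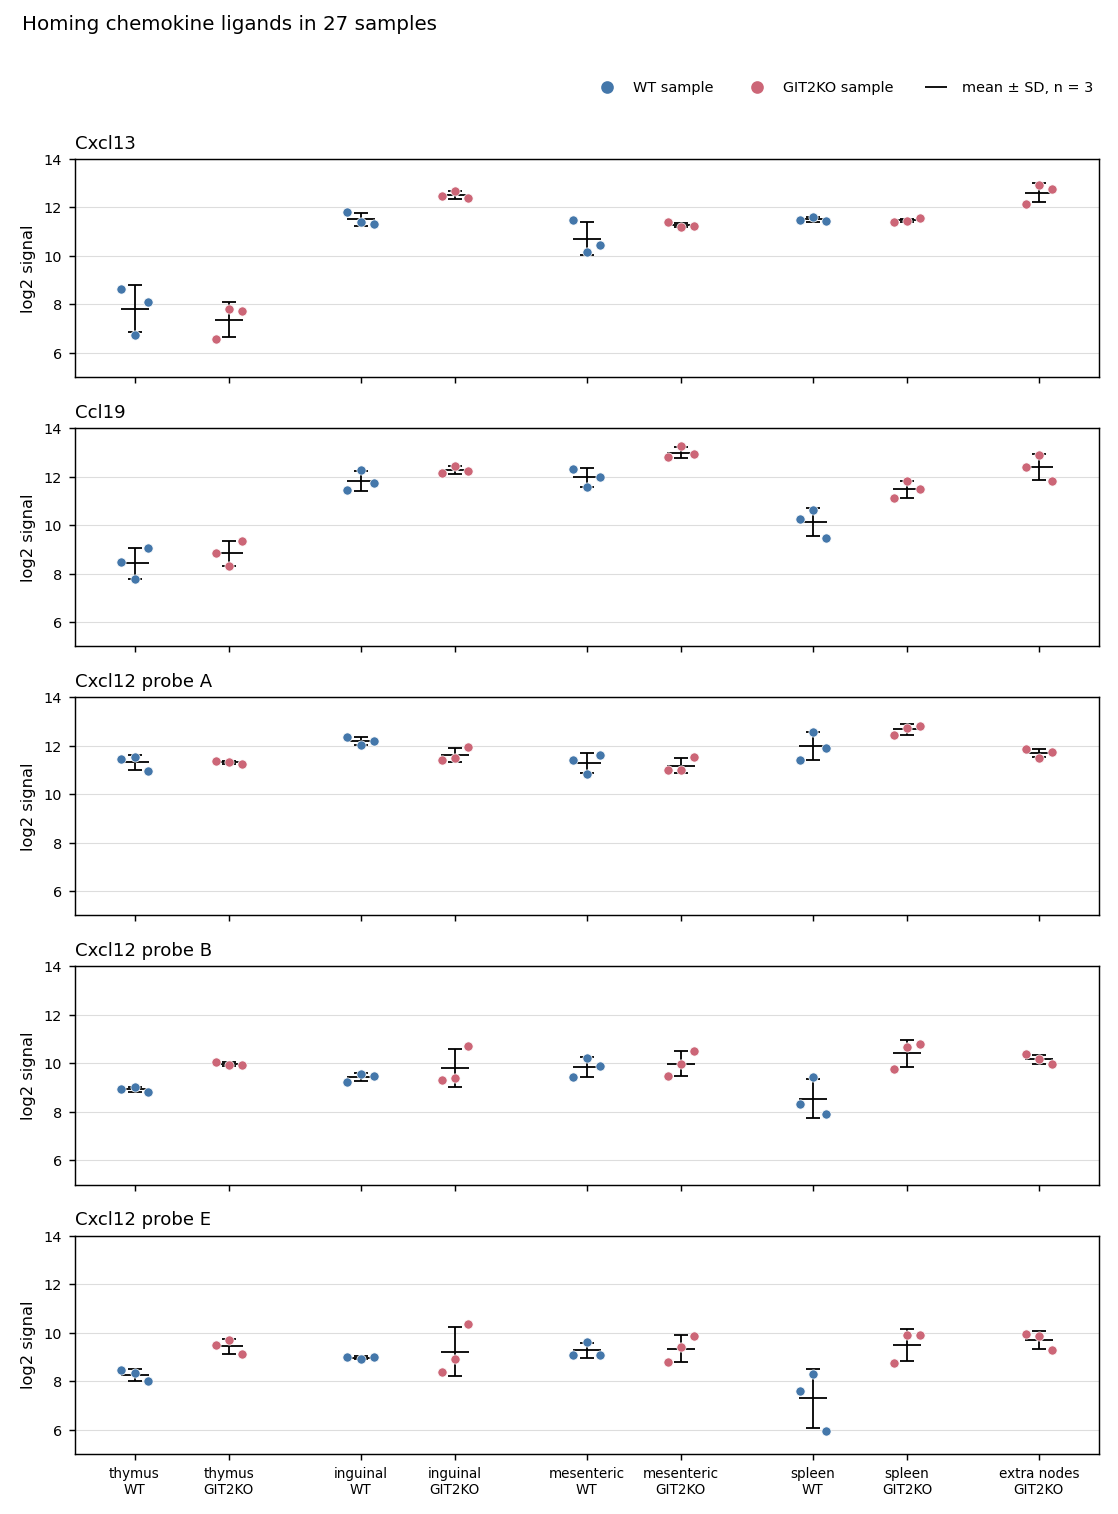
Log2 signal of the Cxcl13 and Ccl19 probes and of Cxcl12 probes A, B and E (y axis) in the 9 groups (x axis); dots are samples, bars mean ± SD of 3 samples. Cxcl13 and Ccl19 are lowest in the thymi, and Cxcl12 probes B and E separate the genotypes in thymus and spleen while Cxcl12 probe A does not.

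Ccr7, the receptor for Ccl19 and Ccl21, was lowest in thymi and highest in MLN. MLN read 9.34, 9.61 and 9.43 in GIT2KO and 9.92, 8.35 and 9.73 in WT, where replicate 2 stood apart. The MLN difference was 0.13 ± 0.3 with that sample and -0.37 ± 0.25 without it. ILN read 9.11, 9.13 and 8.44 in GIT2KO, all under the WT values of 9.28, 9.29 and 9.15, at -0.35 ± 0.3. The gap was widest in spleen, where GIT2KO read 7.61, 7.5 and 7.87 and WT 8.93, 8.14 and 8.96. This was -1.02 ± 0.3, a 2.02-fold lower level, or -0.88 ± 0.34 without the dim WT spleen replicate 3. Beside it, 7 of 9 mature T cell markers fell in the GIT2KO spleen and their mean was 8.74 to 9.04 against 9.53 to 10.02 in WT, without overlap. The part of T cell markers in the Ccr7 value was not tested. Ccr7 correlated with the T cell marker mean at r = -0.2 over all 27 samples and at 0.81 over the 21 outside the thymus.

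In thymi Ccr7 read 7.19, 7.07 and 7.8 in WT and 6.91, 6.68 and 7.21 in GIT2KO, which overlapped. The extra nodes read 8.6, 8.7 and 8.27. They exceeded GIT2KO thymi by 1.59 ± 0.3 and lay under GIT2KO MLN by -0.93 ± 0.3, in both cases without overlap, while they overlapped with GIT2KO ILN. Ccl21a, which encodes the other Ccr7 ligand, was added after its values were seen and is described with no p-value. It rose in the extra nodes over GIT2KO thymus by 1.8 ± 0.3. Its GIT2KO difference was not called in any of the 4 tissues, with 0.11 in thymus, -0.29 in ILN, 0.13 in MLN and -0.66 in spleen. Mouse Ccl21 genes are near-identical copies, so their probes may not be separable.

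Ccr6, a receptor of B cells, dendritic cells and some helper T cells, had 2 probes that moved as one (r = 0.99 over 27 samples, 0.93 outside the thymus). Probe B was highest in GIT2KO ILN (12.18, 12.28 and 11.96), all above WT ILN (11.7, 11.78 and 11.72) by 0.41 ± 0.32. Probe A gave the same picture, at 10.79, 11.03 and 10.75 against 10.26, 10.45 and 10.29, or 0.52 ± 0.28. In MLN and spleen both probes overlapped between genotypes, with differences of -0.03 to 0.27. The extra nodes read 11.64, 11.95 and 11.39 for probe B, which lay under GIT2KO ILN and overlapped with GIT2KO MLN (11.5, 11.31 and 11.56). Probe A read 10.32, 10.86 and 10.34 in the extra nodes, which overlapped with GIT2KO ILN and lay above GIT2KO MLN (10.14, 9.87 and 10.22) by 0.43 ± 0.28.

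In the thymus probe B of Ccr6 read 9.99, 9.26 and 10.54 in WT and 8.44, 7.86 and 9.81 in GIT2KO. Probe A read 8.43, 7.95 and 9.08 in WT and 7.26, 6.88 and 8.48 in GIT2KO. GIT2KO replicate 3 lay inside the WT range for both probes. The differences were -1.23 ± 0.32 and -0.95 ± 0.28, and without that sample -1.78 ± 0.25 and -1.42 ± 0.24. Ccr6 followed the B cell marker mean as Cxcr5 did across all samples (r = 0.92) but less so outside the thymus (0.32 for probe B). The extra nodes exceeded GIT2KO thymi by 2.96 ± 0.32 for probe B and 2.97 ± 0.28 for probe A, and without GIT2KO thymus replicate 3 by 3.51 ± 0.25 and 3.44 ± 0.24. Ccl20, the ligand of Ccr6, was not among the tested genes.

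Cxcr4, present on most leukocytes and on immature thymocytes, varied least of the receptors. Group means ran from 10.07 to 11.11, and no neighbouring pair in their order was free of overlap. WT thymi read 11.13, 10.97 and 11.22 and GIT2KO thymi 11.24, 10.85 and 10.71. In spleen GIT2KO read 9.97, 10.41 and 10.11 against 10.73, 10.91 and 11.46 in WT, all lower, by -0.87 ± 0.2. Without the dim WT spleen replicate 3, which was the highest of its group, this was -0.66 ± 0.2. In ILN the GIT2KO values (9.97, 10.05 and 10.2) also lay under WT (10.44, 10.24 and 10.77), by -0.41 ± 0.2. In MLN the genotypes overlapped. The extra nodes (10.22, 10.42 and 10.13) lay under GIT2KO thymi by -0.68 ± 0.2. Over the 27 samples Cxcr4 correlated negatively with Cxcl13 and Ccl19 (r = -0.66 and -0.69), and over the 21 outside the thymus as well (-0.51 and -0.53).

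**Figure D3:**
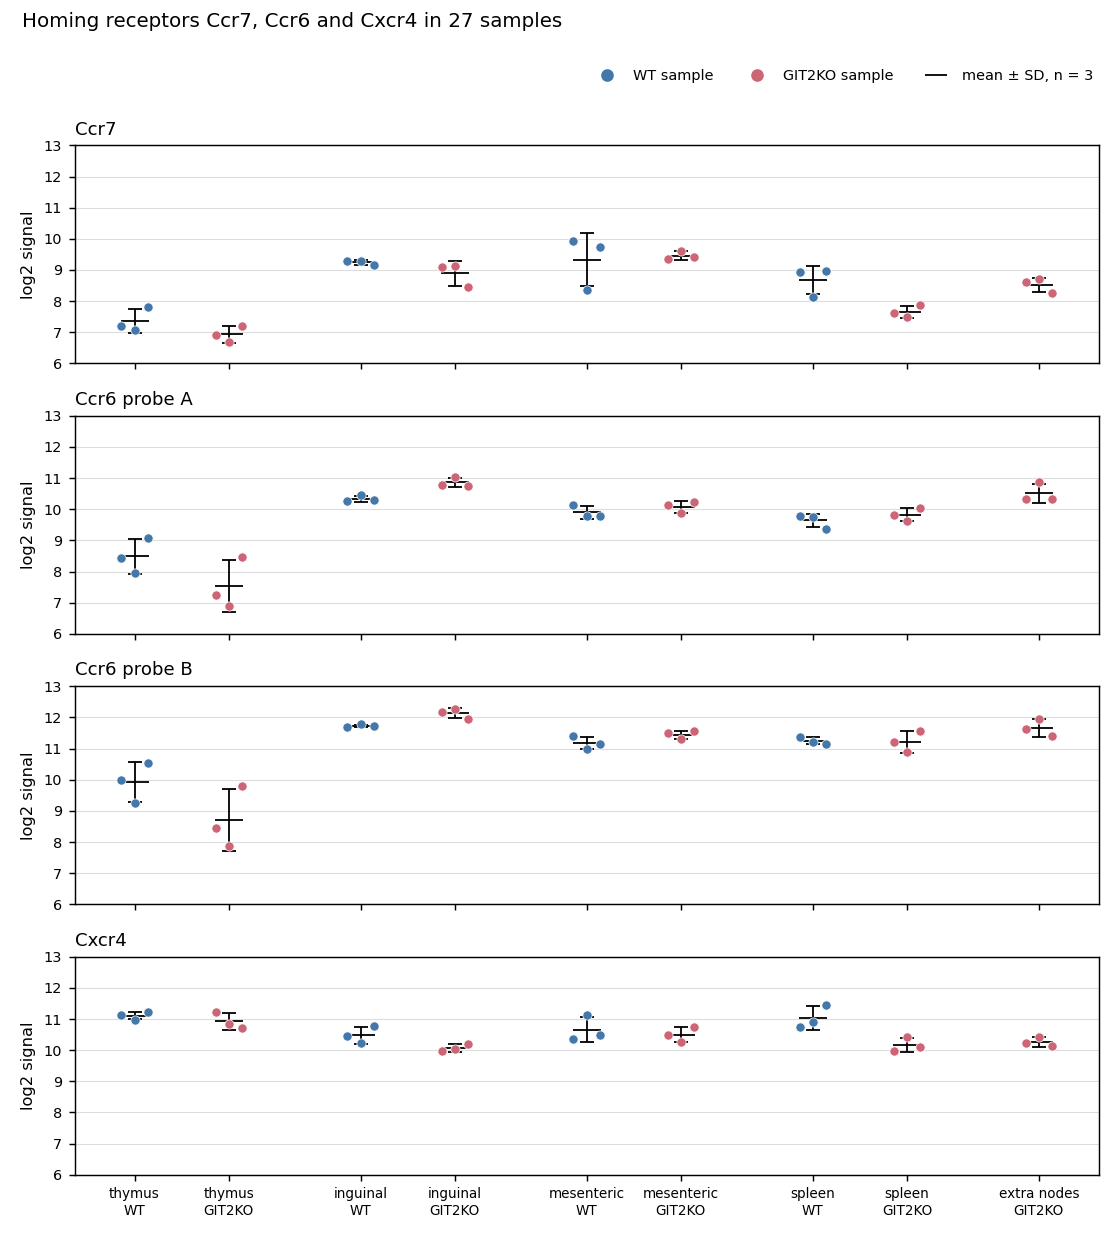
Log2 signal of the Ccr7, Ccr6 and Cxcr4 probes (y axis) in the 9 groups (x axis); dots are samples, bars mean ± SD of 3 samples. Ccr7 and Ccr6 are lowest in the thymi, and Ccr7 and Cxcr4 are lower in GIT2KO than in WT spleen without overlap.

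The genotype differences of the 12 probes were also counted tissue by tissue. In thymus 5 of 12 were called at an adjusted p of 0.05 (4 lower, 1 higher in GIT2KO), beside 17.4% of all tested probes. Without WT thymus replicate 3, 0 of the 5 calls remained. In spleen 7 of 12 were called (3 lower, 4 higher), beside 25.2%. In ILN and in MLN Cxcr5 probe A was the 1 call, beside 2.55% and 2.2%. The median difference of the 12 probes was -0.43 in thymus, 0.37 in ILN, 0.11 in MLN and 0.08 in spleen, against medians of -0.02, 0.01, 0 and 0 over all probes. These counts are descriptive because the genes were chosen with such results known. The calls in thymus and spleen were mostly of different probes. Cxcr5 probe A was lower and Cxcl12 probe B higher in GIT2KO in both. The thymus call of Cxcl12 probe B was lost on leaving out any 1 thymus sample, under the deposited scores and without the filter. For Cxcr5 probe A in thymus, WT was bounded at no more than at least 1.07-fold higher. Cxcr5 probe C and both Ccr6 probes were called lower in thymus only. Ccr7 and Cxcr4 were called lower, and Ccl19 and Cxcl12 probes A and E higher, in spleen only. In limma's F test of the difference between the 4 tissues, Cxcr5 probe A alone of the 12 probes was called. Its WT thymus signal (4.96 to 5.97) lay near background, which bounds its difference there. This call hence cannot tell a tissue difference of the effect from that limit. None of the other probes was called, which does not show that their effects were equal.

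**Figure D4:**
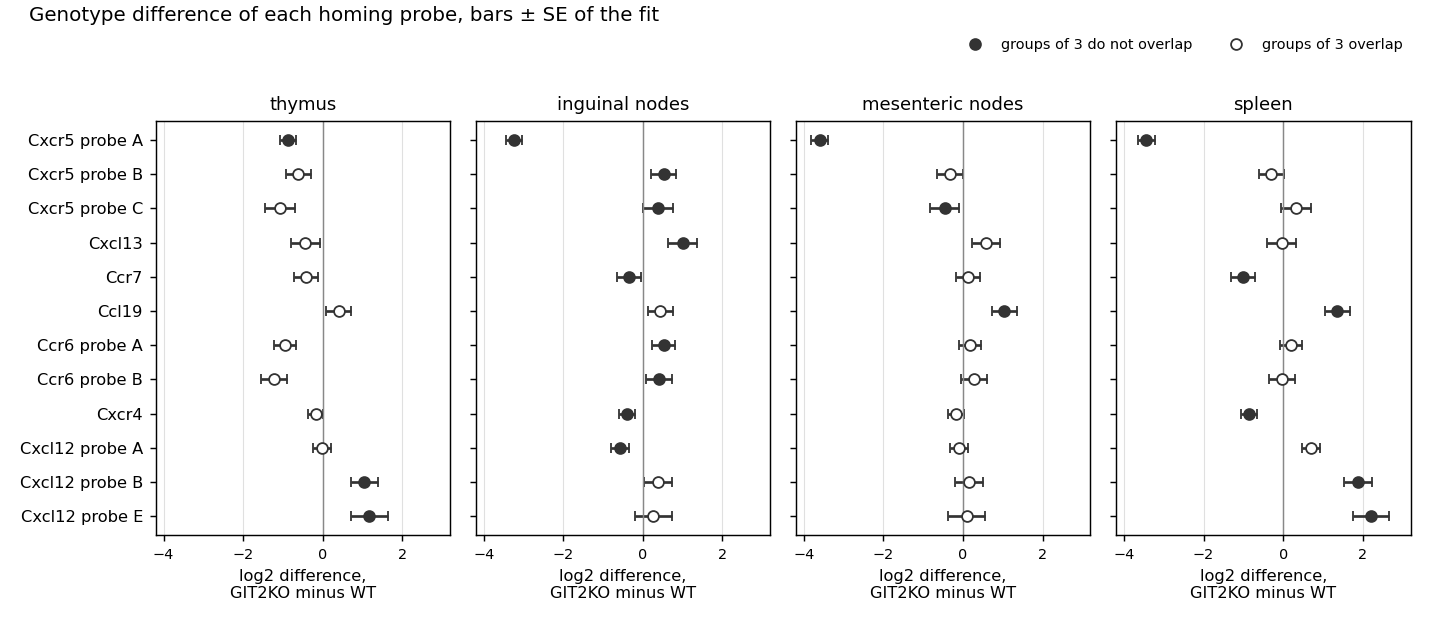
Log2 difference of GIT2KO minus WT (x axis) for the 12 tested homing probes (y axis) in 4 tissues; bars are the SE of the fit, and filled dots mark probes whose 3 GIT2KO and 3 WT samples do not overlap. Cxcr5 probe A lies at -3.24 to -3.6 in nodes and spleen, apart from Cxcr5 probes B and C, and Ccl19 and Cxcl12 lie to the right in spleen.

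Between tissues the homing genes split thymus from periphery. In WT mice 9 of 12 probes were called lower in thymus than in the mean of ILN, MLN and spleen, and none higher, beside 47.7% of all probes. The differences were -3.42 ± 0.29 for Cxcl13, -2.95 ± 0.26 for Cxcr5 probe B, -2.87 ± 0.27 for Ccl19, -1.73 ± 0.24 for Ccr7 and -1.46 ± 0.26 for Ccr6 probe B. Cxcr4 stood at 0.38 ± 0.16 with overlap. Extra nodes against GIT2KO thymus gave 8 called of 12 (7 higher, Cxcr4 lower), beside 40.8%. Against GIT2KO ILN 0 of 12 were called, beside 4.34%. Against GIT2KO MLN 1 of 12 was called, Cxcl13, beside 5.58%, and this call was lost on leaving out any sample but extra nodes replicate 1. These 2 comparisons with nodes and the one with thymus share the extra node samples.

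**Figure D5:**
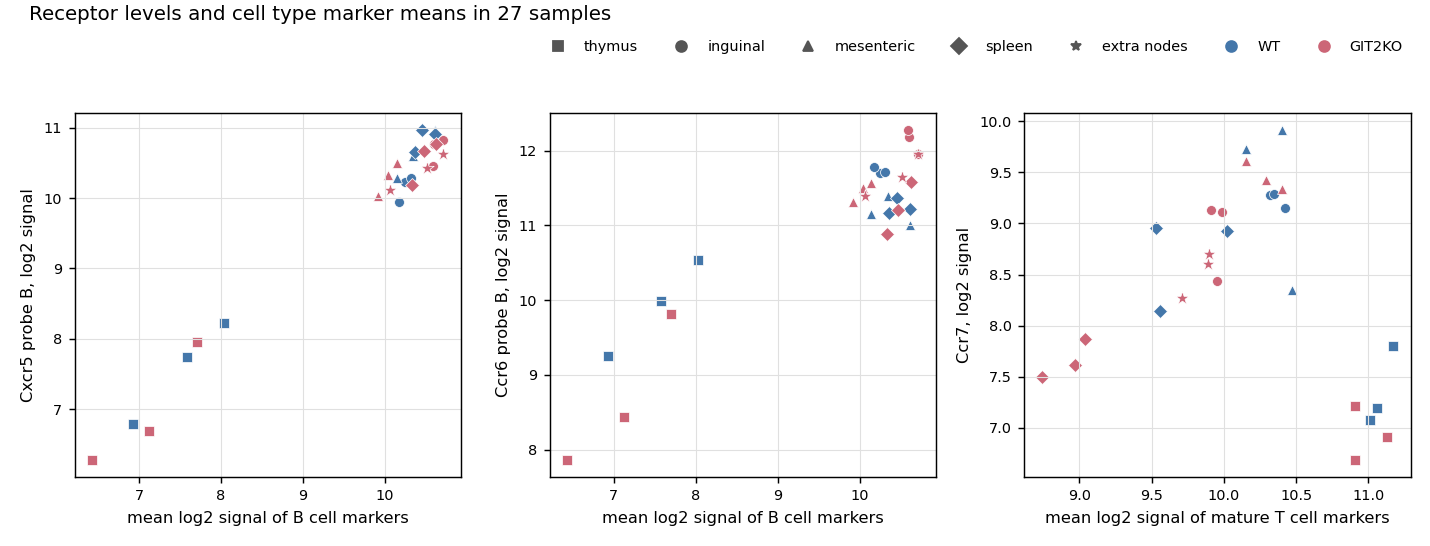
Log2 signal of Cxcr5 probe B and Ccr6 probe B against the mean of B cell markers, and of Ccr7 against the mean of mature T cell markers, with 1 point for each of 27 samples; shapes are tissues and colours genotypes. With the B cell mean, r is 0.99 for Cxcr5 probe B and 0.92 for Ccr6 probe B over all samples, and 0.78 and 0.32 outside the thymus. Ccr7 correlates with the T cell mean at r = -0.2 over all samples and 0.81 outside the thymus. The T cell mean is itself highest in the thymi (10.91 to 11.17).

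Of 84 partner genes of the pathway (other ligands and receptors, adhesion molecules, receptor signalling, and lymphotoxin and organiser genes), 71 were tested with limma over all 15053 probes. In GIT2KO against WT, 3 rose and 5 fell in thymus (beside 17.4% of all probes called), 2 rose in ILN (beside 2.55%), 2 rose and 1 fell in MLN (beside 2.2%), and 9 rose and 14 fell in spleen (beside 25.2%). The genotype effect differed between the 4 tissues for 10 of the 71 in limma's F test, beside 8.23% of all probes. Pik3cg, the phosphoinositide 3-kinase subunit downstream of chemokine receptors, rose in all 4 tissues. Its differences were 1.23 ± 0.21 in thymus (adjusted p = 0.000379), 1.46 ± 0.21 in ILN (adjusted p = 8.7e-05), 1.64 ± 0.21 in MLN (adjusted p = 1.87e-05) and 0.83 ± 0.21 in spleen (adjusted p = 0.00513).

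Other partners moved in fewer tissues. Rgs1, which damps chemokine receptor signalling in lymphocytes, fell by 1.18 on the log2 scale in GIT2KO thymus (adjusted p = 0.00476), where its other probes gave -0.77 and -1.05, and by 1 in GIT2KO spleen (adjusted p = 0.00907). Glycam1, which encodes a mucin-like protein of high endothelial venules, fell by 1.22 in GIT2KO thymus (adjusted p = 0.0189), where 1 GIT2KO and 2 WT samples were detected. Cxcr3, a receptor of activated T cells, rose by 1.06 in GIT2KO MLN (adjusted p = 0.0482), and Cxcl10, one of its ligands, rose by 1.86 in GIT2KO ILN (adjusted p = 0.0154). Ccr8 was undetected in GIT2KO MLN and detected in 2 of 3 WT MLN, at least 1.52-fold higher in WT (adjusted p = 0.00948).

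In spleen the partners that moved most included Il7r, the IL-7 receptor of naive T cells, which fell by 1.93 (adjusted p = 4.1e-05, other probe -1.11), and the T cell chemokine Ccl5, which fell by 1.45 (adjusted p = 0.00076). Ackr1, a decoy chemokine receptor of venules and red cells, rose by 1.61 ± 0.3 (adjusted p = 0.000507), with erythroid markers at 12.67 to 12.98 in GIT2KO against 10.88 to 12.48 in WT. Their part in the Ackr1 value was not tested. Ccl25 fell by 1.19 (adjusted p = 0.00103, other probe -0.42), and Podxl, an endothelial sialomucin gene, fell by 1.1 (adjusted p = 0.023). Tnfrsf1a, a receptor for TNF, rose in thymus (1.05 ± 0.29, adjusted p = 0.0156) and in spleen (1.2 ± 0.29, adjusted p = 0.00426). In spleen it was detected in 1 of 3 WT samples, so the size of that difference rests on values near background. Of the lymphotoxin and organiser genes 6 of 17 fell and 1 rose in GIT2KO spleen, beside 25.2% of all probes called, and their median was -0.41 against 0 over all probes. In the same spleens 7 of 9 mature T cell markers fell, and their part in these values was not tested.

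Against the GIT2KO thymus 37 of 71 partner genes rose in the extra nodes and 7 fell, beside 40.8% of all probes called. Glycam1 was detected in 1 of 3 GIT2KO thymi and rose in the extra nodes, with a fitted difference of 7.17 ± 0.35 that rests on values near background in thymus (adjusted p = 4.42e-14), and Madcam1, the gut-homing addressin, was undetected in the thymi and at least 4.12-fold higher in the extra nodes (adjusted p = 1.61e-06). Ccl25, the Ccr9 ligand of thymic epithelium, fell by 6.65 (adjusted p = 9.89e-17). Tnfrsf13c, the receptor gene for the B cell survival factor BAFF, and Tnfsf13b, which encodes BAFF, rose by 3.7 ± 0.44 (adjusted p = 2.71e-07) and 3.32 ± 0.25 (adjusted p = 1.15e-10). Ackr2, a decoy receptor for inflammatory chemokines, rose by 2.72 ± 0.26 (adjusted p = 9.35e-09). Of the 17 lymphotoxin and organiser genes 13 rose and 1 fell. Lta, a lymphotoxin subunit, rose by 2.47 ± 0.26, and Nfkb2 and Relb of the alternative NF-κB pathway rose by 1.74 ± 0.19 and 1.5 ± 0.31. Lta, Nfkb2 and Relb were added after their values were seen, so they are described with no p-value. The WT thymus was lower than WT peripheral organs in 41 of 71 partner genes and higher in 6, beside 47.7% of all probes called, with Ccl25 among the latter (6.34 ± 0.2, adjusted p = 2.25e-18).

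The extra nodes had 1 partner higher than GIT2KO ILN, Ackr2 (0.9 ± 0.26, adjusted p = 0.0494), and 3 lower, beside 4.34% of all probes called. These were Cxcr6, Cx3cl1 and Cxcl16, with differences of -1.55, -1.07 and -1.01 (adjusted p = 0.0124, 0.00722 and 0.0491). These tissues share animals, and with animal as a fixed term 1 partner gene was called, and 0 in a fit of the compared groups alone. Cxcr6 is the receptor for Cxcl16, and Cx3cl1 is fractalkine. In the extra nodes Cxcr6 was detected in 2 of 3 samples (5 to 6.3), so the size of its differences from both node groups rests on values near background. Against GIT2KO MLN 2 were higher and 6 lower, beside 5.58% of all probes called. The differences were -1.83 for Cxcr6 (adjusted p = 0.00299), -1.64 for Rgs1 (adjusted p = 0.000581), -1.34 for the integrin gene Itgae (adjusted p = 0.0291), -1.29 for Madcam1 (adjusted p = 0.0311) and -1.05 for Rgs10 (adjusted p = 0.000262). Itgb1 was higher by 1.52 ± 0.29 (adjusted p = 0.00225), but its other probe gave -0.12. Beside these comparisons, 3 of 9 adipocyte markers rose in the extra nodes over GIT2KO ILN and 4 of 9 over GIT2KO MLN. Their mean was 7.85 to 10.79 in the extra nodes. Of 4 plasma cell markers 2 rose in each comparison, and 2 of 6 dendritic cell markers fell against GIT2KO ILN (mean 6.47 to 6.58 against 7.06 to 7.4). Their part in the partner values was not tested.

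The genes most like each member over the 27 samples, by Pearson's r and as a description over samples that share animals, were as follows. These r include the thymi, where Cxcr5, Cxcl13, Ccr7, Ccl19 and Ccr6 were lowest, and were not computed without them. Such an r can rest on the thymi: for Cxcl13 and the B cell marker mean it was 0.93 with them and 0.33 without. Cxcr5 probe B was nearest to the B cell receptor gene Cd79b (0.992), the kinase gene Btk (0.988) and Fcrla (0.986). Cxcl13 was nearest to Il12a (0.961), the desmin gene Des (0.96) and Tnfsf13b (0.959). Ccr7 was nearest to N4bp2l1 (0.958), Apol10b (0.957) and Traf1 (0.939), and Ccl19 to Ogfrl1 (0.96), Aif1 (0.951) and Serping1 (0.948). Ccr6 probe B was nearest to Ciita, the class II transactivator gene (0.958), Srpk3 (0.949) and Lta (0.947). Cxcr4 and Cxcl12 had weaker neighbours. The best r was 0.861 for Cxcr4, with Ythdc1 ahead of Trip12 (0.847) and Tra2a (0.818), and 0.881 for Cxcl12 probe A, with Agap1 ahead of Tnxb (0.873) and Vnn3 (0.87).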

How the data were processed

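RNA of 27 samples was hybridised to Illumina MouseRef-8 bead arrays. The authors read the bead intensity of each probe with GenomeStudio 2011.1 and deposited it without normalization, together with a detection p-value against the negative control beads of the same array. The deposited value table holds scores, which the authors made by z-transforming log10 intensities per array; recomputed z values matched them within 5e-10. No column of per-sample values was left aside. Intensities were background-corrected and quantile-normalized on the log2 scale with neqc of limma 3.58.1 (R 4.3.3, offset 16), and the 4 repeat arrays were averaged with the first array of their sample. Probes with a detection p under 0.05 in at least 3 samples were kept (15053 of 25697, 10341 genes). One limma model with 9 group means and a trended prior was fitted to all samples, and p-values were adjusted by Benjamini and Hochberg over all 15053 probes with a threshold of 0.05. The script was tested on simulated data.

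Groups and replicate numbers came from the sample labels. Replicates were different animals within a tissue. Equal replicate numbers in the 2 genotypes mark different animals, so the genotype comparisons hold no pairs. Tissues compared within a genotype mostly shared animals. The main fit had no block and left this pairing out, and blocks for animal were tried among the alternatives. The normalization assumes that most probes keep their level between tissues, and the tissues here differ widely. The array number, 3 per group, limits the precision. The 8 genes, the partner genes and the marker lists were chosen with earlier results of these data known. Every probe of the 8 genes is described. Of the partner genes, those called with a log2 difference over 1 are named, at most 6 per comparison by size. Ccl21a, Lta, Nfkb2 and Relb, and further values of Pik3cg, Rgs1 and Ackr2, were added after their values were seen. For each described gene the 3 most alike genes by Pearson's r are named. Some listed partner genes are not reported here. Alternatives were the signal without background subtraction, the deposited scores, no filter, the compared groups alone, single repeat arrays, a robust prior, blocks for replicate number and for animal, and each sample left out in turn. Promoter sequences were taken from RefSeq (GRCm38.p6).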

Additional observations from a re-analysis of the deposited data

Results flagged for a closer look

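The GIT2KO effect of 10 of 71 partner genes differed between the 4 tissues in limma's F test, beside 8.23% of all probes. Cxcr3 (adjusted p = 0.0249) and Cxcr6 (adjusted p = 0.0338), receptors of effector T cells, had their highest difference in MLN, at 1.06 and 1.2, and their lowest at -0.77 in thymus and -0.87 in spleen. Ccl5 (adjusted p = 0.0431), Ccl25 (adjusted p = 0.0314), Il7 (adjusted p = 0.0342) and Il7r (adjusted p = 0.0219) had their lowest difference in spleen, at -1.45, -1.19, -1.01 and -1.93. Itgb7 (adjusted p = 0.0379) also did, at -0.93, against 0.26 in MLN. Ackr1 (adjusted p = 0.0121) had its highest difference in spleen, at 1.61, against -0.53 in thymus. Gnb1 (adjusted p = 0.0416) was at 0.91 in spleen and 0.04 in MLN, and Rgs14 (adjusted p = 0.0211) at 0.52 in MLN and -0.58 in thymus. Cxcr5 probe C ran opposite ways in the nodes, with every GIT2KO sample above WT in ILN (0.38) and below WT in MLN (-0.46). The F test over the 4 tissues did not call this probe, and ILN and MLN were not compared on their own.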

How the results depend on the processing

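The 96 differences of single homing probes were recomputed under 6 settings (2 of them the extremes of leaving out 1 sample, and the deposited scores compared by sign alone). Of the 576 values, 556 counted as unchanged. Every uncalled difference under the deposited scores is among them by rule, since only a sign change of a called one could count there. Beyond the spread between replicates 20 moved, and 0 of the called differences changed sign. Uncalled ones near 0 did, such as Ccr7 in MLN without WT replicate 2 (-0.37 from 0.13) and Cxcl12 probe B in ILN without GIT2KO replicate 3 (-0.08 from 0.37). Leaving out 1 sample at a time gave 0 to 5 called homing probes in thymus (5 with all samples), 1 to 1 in ILN and in MLN, 5 to 7 in spleen, 7 to 8 for extra nodes against GIT2KO thymus, 0 to 0 against ILN, 0 to 1 against MLN, 8 to 10 for WT thymus against peripheral organs and 1 to 5 for an F test of the difference between tissues (1 with all samples, Cxcr5 probe A, whose low thymus signal bounds its difference there). For partner genes it gave 3 to 12 in thymus, 1 to 2 in ILN, 1 to 5 in MLN, 14 to 29 in spleen, 40 to 45, 1 to 3 and 5 to 9 for the extra nodes against thymus, ILN and MLN, and 44 to 51 for WT thymus. The lowest thymus count lacked WT replicate 3. The lowest spleen partner count, 14, lacked the dim WT replicate 3, and the highest, 29, lacked WT replicate 2. In spleen the Ccr7 and Cxcl12 probe A calls were lost without GIT2KO replicate 2, WT replicate 1 or WT replicate 3, and Cxcl12 probe A also without GIT2KO replicate 3. The Cxcr4 call of extra nodes against thymus was lost without GIT2KO thymus replicate 1.

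The deposited scores gave 2 homing probes and 5 partner genes in thymus, 1 partner gene in ILN, and 2 homing probes for extra nodes against MLN. Without the filter there were 3 homing probes in thymus and 2 partner genes for extra nodes against ILN. A fit of the compared groups alone gave 3 homing probes in thymus, 6 homing probes and 11 partner genes in ILN, 13 partner genes in spleen (23 with all groups), 0 partner genes for extra nodes against ILN (4 with all groups), and 2 homing probes against MLN. With animal as a fixed term 1 partner gene was called against ILN. The first array alone gave 2 homing probes against MLN. With the replicate block 2 homing probes differed between tissues (1 without it), as with animal as a random block (consensus correlation 0.047), and no other count moved by over 1.5 times under the replicate block. Same-numbered GIT2KO and WT samples correlated at -0.13 to 0.26 in their deviations (5 of 12 over 0.1) and samples of the same animal at -0.23 to 0.2 (3 of 15 over 0.1). The causes were not tested. A signal near background, as of Cxcr5 probe A in GIT2KO, limits its difference: without background subtraction it was -2.22 in ILN, -2.51 in MLN and -2.35 in spleen.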

Other observations

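Probes that behaved like Cxcr5 probe A were sought over the whole array after its values were seen. Of 25697 probes, 4 were detected in all 9 WT node and spleen samples and in none of the 15 GIT2KO samples. These were Cxcr5 probe A (mean 8.05 against 4.62), a probe of the potassium channel gene Kcnc1 (7.22 against 4.89), a probe of Trim30a (9.67 against 4.71) and 1 probe without a symbol (6.1 against 4.72). The reverse, detection in all 9 GIT2KO node and spleen samples and in no WT node or spleen sample, held for 5 probes. Of 10 neighbours of Cxcr5 on chromosome 9, also chosen after the values were seen, Bcl9l was called lower in GIT2KO in all 4 tissues, with differences of -0.67 in thymus, -0.85 in ILN, -0.94 in MLN and -1.1 in spleen (limma). Tmem25 was also called lower in all 4, at -0.77, -1.89, -1.39 and -1.12. The other 8 neighbours had 0 to 2 calls each.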
